A study of Mus musculus with 14 samples.

Results

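Transcription factor genes of the SOX, forkhead, HOX, T-box, RUNX, ETS, grainyhead, AP-2, nuclear factor I (NFI), sine oculis, homeobox, TCF and LEF, ZEB, TWIST and SNAI, and numbered nuclear receptor families were followed across sorted cell populations of the mouse mammary gland. The genes were taken by their symbols, from a table already filtered for variation between these arrays and with earlier results of these data known. 69 genes, read by 109 probe sets, matched among the 6044 named genes of the deposited table, which held 7190 rows in all. A fixed list of 9 genes of the same families was left out. Apart from these 9, 243 protein-coding genes of the RefSeq annotation carry such symbols. The 68 protein-coding genes in the table were 28.0% of them, and the others were not analysed here. The remaining gene, Hoxd3os1, is a noncoding antisense RNA of the HOXD cluster. Twistnb, a subunit of RNA polymerase I, and Pbxip1, a protein that binds PBX factors, matched by symbol but are not transcription factors.

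The 14 arrays held RNA of virgin female C57BL/6 mice aged 6 to 8 weeks, with no treatment and no transgene. Dissociated gland cells were stained for the epithelial sorting markers CD24, CD49f and Thy-1 and for the blood and vessel markers Ter119, CD45 and CD31, and they were sorted a second time before RNA was taken. The study's methods also list an antibody to CD140α, the fibroblast marker encoded by Pdgfra, which the array labels do not name. The luminal populations were CD24highCD49fmed (3 arrays) and CD24medCD49f-/low (2 arrays). The basal populations were Thy-1+CD24medCD49fhigh, Thy-1-CD24medCD49fhigh and CD24medCD49fmed (3 arrays each). The study's text has no population of the last name and describes its myoepithelial cells as CD24lowCD49fmed. Whether these are the same cells is not stated, and these arrays are counted as basal here, with medians over the 12 basal epithelial markers between 1.72 and 2.05, against -2.79 to -2.59 in the luminal arrays. The series lists stem, progenitor, myoepithelial, luminal progenitor and differentiated luminal cells as the cells it profiled. The populations are called here by their surface markers, with Thy-1+ and Thy-1- as short names for both CD49fhigh populations. The labels do not say that replicates came from separate animals, so p-values measure the spread between these arrays, which may be technical.

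Transcription factors of these families bind DNA through a domain shared within the family, and they set up and keep cell identities during development. The mammary epithelium has an inner luminal layer, which makes milk and senses hormones, and an outer basal layer, which contracts and holds cells able to regenerate the gland. ETS factors with epithelial roles, grainyhead factors and AP-2 factors are known for their part in simple epithelia, whereas SNAI and ZEB factors are known as repressors of E-cadherin and other junction genes.

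Values are log2 signals from which the authors had subtracted each probe set's mean over the 14 arrays. A value of 0 is therefore a gene's own average, and levels of different genes cannot be set against each other. The table keeps only probe sets that varied at least 4-fold between arrays. Marker genes followed the gates: all 12 measured basal epithelial markers were lower and all 10 measured luminal epithelial markers higher in the luminal arrays (limma, Benjamini-Hochberg adjusted p under 0.05 over all rows). The basal arrays were uneven. Their median over the 12 basal markers was 0.25 in Thy-1+ replicate 3, 0.70 in Thy-1+ replicate 1 and 0.72 in Thy-1- replicate 2. It was 1.72 to 2.33 in the other basal arrays. The median over the 10 luminal markers was 0.02 in Thy-1- replicate 3 and -1.37 to -0.24 in the other basal arrays. The arrays differed in level. The median over all probe sets was -0.75 in Thy-1+ replicate 1 and -0.52 in Thy-1+ replicate 3, and between -0.15 and 0.29 in the other arrays. The median of 16 measured endothelial markers was 2.70 in Thy-1+ replicate 1 and 2.44 in CD24medCD49fmed replicate 1, at most 0.83 in the other basal arrays and at most -0.78 in the luminal arrays. Since the values are centred, they do not show whether a marker was absent from an array.

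Between the layers 24 of the 69 genes passed the threshold, 13 of them higher and 11 lower in luminal cells. Ehf and Elf3 of the ETS family, Grhl1, Sox9 and Foxq1 led the rises, and Snai2, Irx4, Sox8, Sox18 and Etv5 the falls. The share called was 34.8%, where 45.1% of all 7190 rows were called (27.7% higher and 17.4% lower). The median difference over the 69 genes was -0.21 log2, and over all rows it was 0.33. With each array centred on its own median these medians were -0.48 and 0.07, and 11 genes were called higher and 16 lower, in place of 13 and 11. The 5 luminal arrays lay wholly above the 9 basal arrays for 8 genes and wholly below them for 6, which is 20.3% of the genes, against 26.0% of all rows (16.5% above and 9.51% below). In sorted bulk samples, fewer cells of a type and less RNA per cell cannot be told apart. The plot of all values by array shows the blocks of luminal and basal arrays gene by gene.

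**Figure D1:**
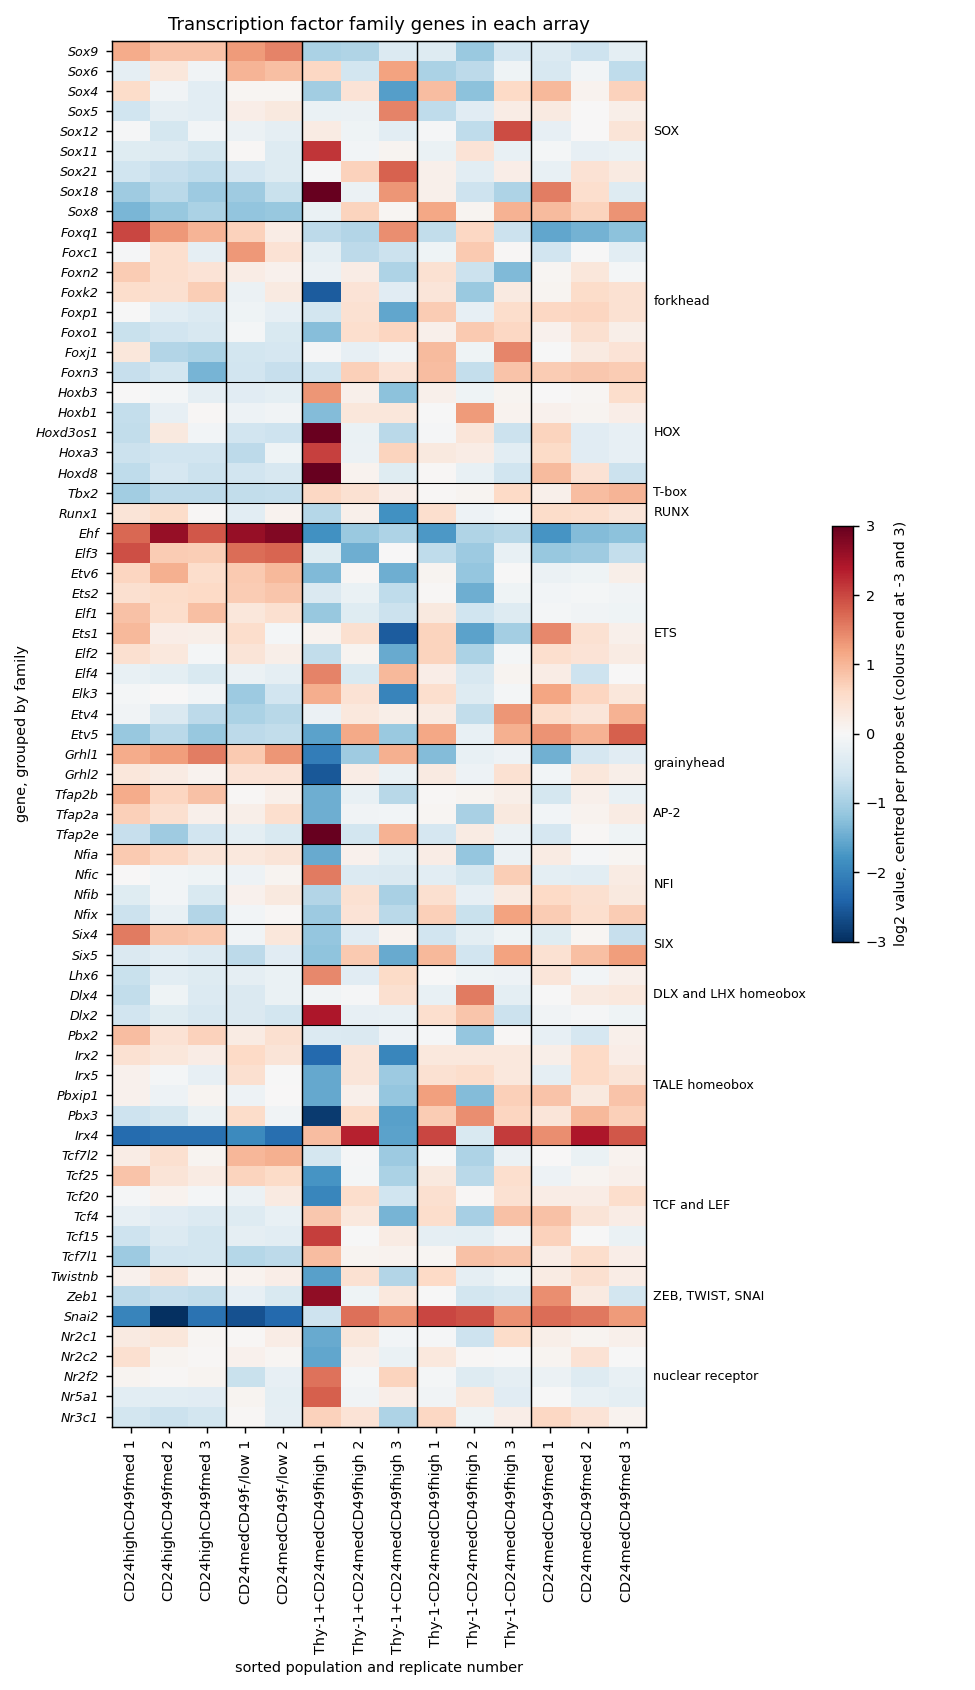
Value of each of the 69 genes (rows, grouped by family) in each of the 14 arrays (columns, by population and replicate number), as log2 centred per probe set, with colours ending at -3 and 3. Ehf is red in the 5 luminal arrays and blue in the 9 basal arrays, and Snai2 and Irx4 are blue in the luminal arrays. Thy-1+CD24medCD49fhigh replicate 1 holds the highest value of 17 genes and the lowest of 22. Of all rows, 13.7% are highest and 35.1% lowest in that array.

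The ETS family, with 11 genes the largest measured, had the most called genes. 5 of 11 were higher and 2 lower in luminal cells, where 27.7% and 17.4% of all rows were called. The median difference of the family was 0.54. Ehf encodes an ETS factor of glandular epithelia. It was at 1.72, 2.62 and 1.87 in the CD24highCD49fmed arrays and 2.61 and 2.77 in the CD24medCD49f-/low arrays, against -1.82 to -0.84 (median -1.23) in the 9 basal arrays. The groups were far apart, and the difference of 3.67 log2 (SE 0.29), 12.7-fold, was the largest rise among the 69 genes (limma adjusted p = 9.15e-09). All 3 Ehf probe sets gave it, between 3.10 and 4.58. Elf3, another epithelial ETS factor, was at 1.94, 0.77 and 0.73 in the CD24highCD49fmed arrays and 1.67 and 1.74 in the CD24medCD49f-/low arrays, against -1.47 to 0.02 (median -0.77) in basal arrays. The luminal arrays again all lay above the basal ones, by 2.18 log2 on average (SE 0.32, limma adjusted p = 1.58e-05). Etv6, a repressor known from blood cell development, Ets2, a target of growth factor signalling through MAP kinases, and Elf1, a broadly expressed activator, were 1.25, 1.02 and 0.94 log2 higher, and none of their luminal arrays fell within the basal range. On rows of their own, the Etv6 probe set at 1.74 passed (limma adjusted p = 0.000265) and that at 0.76 did not (adjusted p = 0.0677). Etv4 and Etv5, closely related factors downstream of fibroblast growth factor signalling, went the other way. Etv5 was at -1.13, -0.82 and -1.13 in the CD24highCD49fmed arrays and -0.78 and -0.73 in the CD24medCD49f-/low arrays, against -1.61 to 1.79 (median 1.06) in basal arrays. 2 Thy-1+ arrays, at -1.61 and -1.10, overlapped the luminal ones, and the mean difference was -1.40 log2 (SE 0.39, limma adjusted p = 0.00636). On rows of their own, the Etv5 probe set at -1.82 passed (limma adjusted p = 0.000214) and that at -0.98 did not (adjusted p = 0.0849). For Etv4 the difference was -1.01. Ets1, known from endothelial and blood cells, had a basal range of -2.49 to 1.44 around 5 luminal values between -0.05 and 0.96, and its 2 probe sets differed in sign (-0.23 and 1.32). Elk3, a repressor active in vessels, was at -0.64 (SE 0.39), which did not pass.

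**Figure D2:**
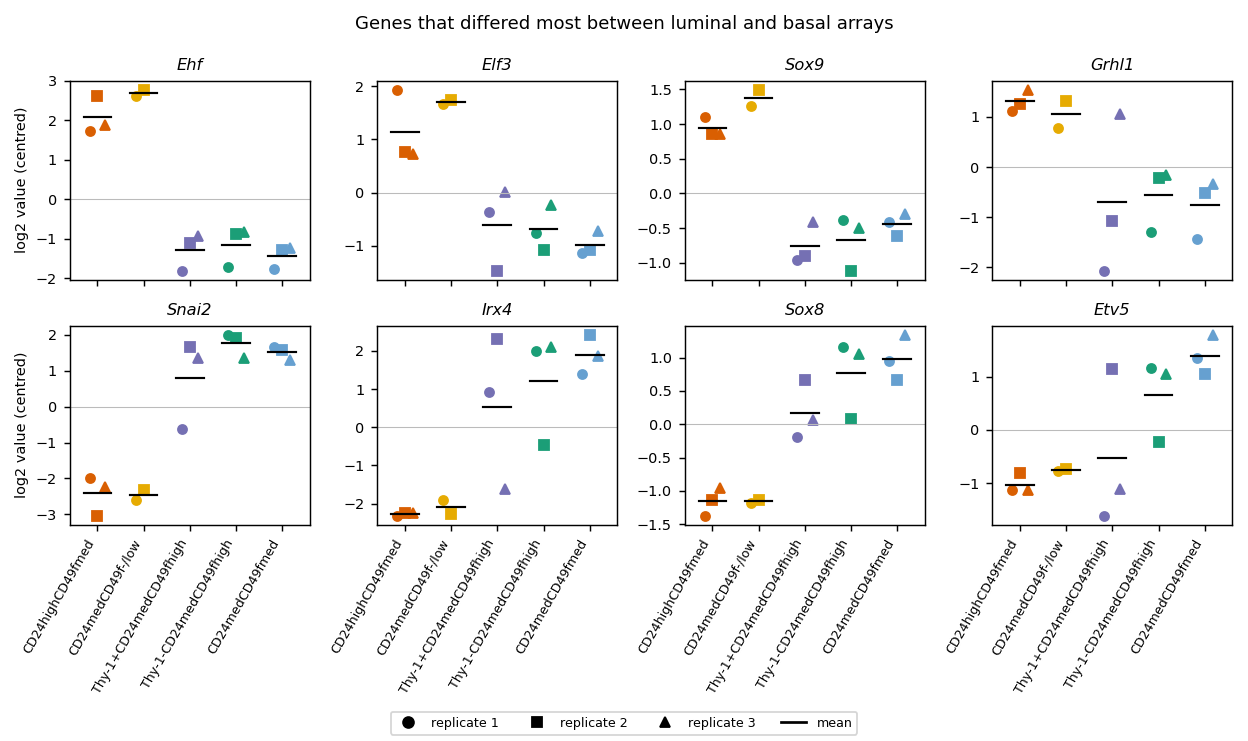
Log2 value (centred) of 8 genes in each array by population, with luminal populations left of basal ones, symbols by replicate number and bars for population means. For Ehf, Elf3 and Sox9 every luminal array lies above every basal one and for Snai2, Irx4 and Sox8 below, while Grhl1 and Etv5 have Thy-1+CD24medCD49fhigh arrays within the luminal range.

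Within the SOX family the genes parted. Sox9, a factor of epithelial progenitors and of chondrocytes, rose in luminal cells, with 1.11, 0.86 and 0.86 in the CD24highCD49fmed arrays and 1.27 and 1.50 in the CD24medCD49f-/low arrays, against -1.12 to -0.30 (median -0.50) in basal arrays. The groups did not overlap, and the difference was 1.78 log2 (SE 0.26, limma adjusted p = 1.82e-05). Sox8, which belongs to the same SoxE group as Sox9, fell. It was at -1.37, -1.14 and -0.95 in the CD24highCD49fmed arrays and -1.18 and -1.14 in the CD24medCD49f-/low arrays, against -0.19 to 1.35 (median 0.66) in basal arrays, a difference of -1.80 (SE 0.28, limma adjusted p = 4.17e-05). These closest relatives thus had differences of like size and opposite sign. Sox21, a SoxB factor, also fell, with a difference of -0.89 log2 and no overlap. Sox18, a factor of endothelial cells, was at -1.06, -0.82 and -1.09 in the CD24highCD49fmed arrays and -1.07 and -0.68 in the CD24medCD49f-/low arrays, against -0.93 to 3.29 (median 0.14) in basal arrays. It was highest in the arrays with the most endothelial marker signal, at 3.29 in Thy-1+ replicate 1 and 1.54 in CD24medCD49fmed replicate 1. It was also at 1.33 in Thy-1+ replicate 3, where the median over the endothelial markers was -0.06. Of the 16 endothelial markers measured, 9 were also called lower in the luminal arrays, and their median difference was -1.26. The difference for Sox18 was -1.46 (SE 0.44, limma adjusted p = 0.0116). Without replicate 1 of Thy-1+ and of CD24medCD49fmed cells it was -0.99 (SE 0.31, limma adjusted p = 0.0201). The part of endothelial cells in these values was not tested. Sox4, Sox5, Sox6, Sox11 and Sox12 did not pass the threshold, with differences between -0.49 and 0.69.

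Of 8 forkhead genes 1 was called higher and 2 lower in luminal cells, where 27.7% and 17.4% of all rows were called. Foxq1, a forkhead factor of epithelia, was at 2.00, 1.29 and 1.02 in the CD24highCD49fmed arrays and 0.70 and 0.23 in the CD24medCD49f-/low arrays, against -1.55 to 1.38 (median -0.80) in basal arrays. Thy-1+ replicate 3 at 1.38 and Thy-1- replicate 2 at 0.62 reached into the luminal range, and the difference was 1.53 log2 (SE 0.37, limma adjusted p = 0.00244). Foxn3, a repressor, and Foxj1, the factor of motile cilia, fell, with differences of -1.19 and -0.80 log2. Foxj1 was called in 5 of the 14 fits that left out 1 array each. Foxc1, a factor of mesoderm and of basal-like tumours, was at 0.68 (SE 0.28, limma adjusted p = 0.0568), and Foxo1, a target of insulin signalling, at -0.66 (SE 0.32, adjusted p = 0.0943). Foxo1 passed with arrays centred on their medians (-0.93, limma adjusted p = 0.0142) and after quantile normalization (-0.87, adjusted p = 0.00827). Foxp1, Foxk2 and Foxn2 did not pass.

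The repressor Snai2, also called Slug, had the largest fall of the 69 genes. It was at -1.99, -3.03 and -2.23 in the CD24highCD49fmed arrays and -2.61 and -2.32 in the CD24medCD49f-/low arrays, against -0.62 to 2.00 (median 1.57) in basal arrays. Thy-1+ replicate 1 at -0.62 was the lowest basal array, and the next basal value was 1.28. The difference of -3.79 log2 (SE 0.35), 13.9-fold, came from 2 probe sets that gave -2.86 and -4.73 (limma adjusted p = 5.52e-08 for their mean). Zeb1, a repressor of the same junction genes, was at -0.79 to -0.25 in luminal arrays, against -0.55 to 2.67 in basal arrays. Its difference of -0.87 log2 (SE 0.40) did not pass (limma adjusted p = 0.0838), and it was -0.41 without the 2 arrays with high endothelial markers. On rows of their own its 2 probe sets parted, at -1.405 (limma adjusted p = 0.0149) and -0.337 (adjusted p = 0.4775). Grhl1, a grainyhead factor that activates desmosomal cadherin genes, rose in luminal cells. It was at 1.12, 1.26 and 1.54 in the CD24highCD49fmed arrays and 0.79 and 1.33 in the CD24medCD49f-/low arrays, against -2.07 to 1.06 (median -0.51) in basal arrays. The highest basal array, Thy-1+ replicate 3, overlapped the luminal ones, and the difference was 1.85 log2 (SE 0.41, limma adjusted p = 0.00110). Grhl2, which controls epithelial junction genes, was at 0.48 (SE 0.37), and its lowest value, -2.55, was that of Thy-1+ replicate 1. Of the AP-2 genes, Tfap2b was 0.80 log2 higher (SE 0.28, limma adjusted p = 0.0246), Tfap2a was at 0.62 (SE 0.31) and Tfap2e at -0.91 (SE 0.46), where neither passed. On rows of their own, the Tfap2b probe set at 0.95 passed (limma adjusted p = 0.0107) and that at 0.64 did not (adjusted p = 0.0793).

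Among the TALE homeobox genes Irx4, an Iroquois factor known from the ventricle of the heart, stood out. It was at -2.31, -2.24 and -2.24 in the CD24highCD49fmed arrays and -1.91 and -2.27 in the CD24medCD49f-/low arrays, against -1.61 to 2.43 (median 1.87) in basal arrays. The luminal values were close together, and the basal ones were spread, with Thy-1+ replicate 3 at -1.61 and Thy-1- replicate 2 at -0.45 and the other 7 at 0.92 or above. The difference was -3.40 log2 (SE 0.51), 10.5-fold (limma adjusted p = 2.37e-05). Irx2, from the same Iroquois gene cluster, and Irx5, from the other cluster, were at 0.65 and 0.12 and did not pass. Pbx2, a partner of HOX proteins, was 0.84 log2 higher in luminal cells with no overlap (limma adjusted p = 0.0206), and with arrays centred on their medians it was at 0.57 and did not pass (adjusted p = 0.0838). Pbx3 was at -0.21. Six4, a sine oculis homeobox factor, was 0.96 log2 higher (SE 0.29, limma adjusted p = 0.0114), while Six5 was at -0.73 (SE 0.38). None of the 5 HOX rows and none of the genes Dlx2, Dlx4 and Lhx6 was called, and at an unadjusted p under 0.05 there were 1. All 8 differences were below 0, from -0.91 to -0.31, and they stayed below 0 with arrays centred on their medians and after quantile normalization. For Hoxd8, a HOXD cluster gene, the luminal arrays lay between -0.76 and -0.49, against -0.65 to 3.29 in basal arrays, and the top value was that of Thy-1+ replicate 1. Hoxa3 came closest to the threshold, at -0.83 (SE 0.34, limma adjusted p = 0.0501), and it was called with arrays centred on their medians.

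Tbx2, a T-box repressor that acts in early mammary development, was at -1.05, -0.79 and -0.78 in the CD24highCD49fmed arrays and -0.73 and -0.72 in the CD24medCD49f-/low arrays, against 0.03 to 1.01 (median 0.45) in basal arrays. No luminal array came near the basal ones, and the difference was -1.25 log2 (SE 0.27, limma adjusted p = 0.000772). The Wnt pathway ends on TCF and LEF proteins, and both of the measured ones differed, in opposite directions. Tcf7l1, which mainly represses Wnt targets, was at -1.10, -0.58 and -0.55 in the CD24highCD49fmed arrays and -0.84 and -0.78 in the CD24medCD49f-/low arrays, against 0.05 to 0.92 (median 0.22) in basal arrays, a difference of -1.20 (SE 0.28, limma adjusted p = 0.00154). Tcf7l2, which mainly activates them, was at 0.23, 0.48 and 0.09 in the CD24highCD49fmed arrays and 0.99 and 1.07 in the CD24medCD49f-/low arrays, against -1.08 to 0.09 (median -0.18) in basal arrays, a difference of 0.96 (SE 0.28, limma adjusted p = 0.00811). The other genes of that symbol pattern are no Wnt effectors. Tcf25 was 0.86 log2 higher (limma adjusted p = 0.0338) and lost the call with arrays centred on their medians (adjusted p = 0.0648) and in 7 of the 14 fits without 1 array. Tcf4 and Tcf15, basic helix-loop-helix factors, and Tcf20 did not pass.

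Of the genes with a known mammary part that were not called, Runx1, a factor needed for the luminal lineage, lay between -0.31 and 0.55 in luminal arrays, against -1.83 to 0.56 in basal arrays. Its difference of 0.20 (SE 0.31) was -0.065 with arrays centred on their medians. The NFI genes, whose factors bind milk protein gene promoters, had differences from -0.50 (Nfix) to 0.75 (Nfia), and none was called (1 at an unadjusted p under 0.05). All 5 luminal arrays lay above the basal ones for Nfia (SE 0.32, limma adjusted p = 0.0583). Of its 4 probe sets on rows of their own, those at 1.025 and 0.86 passed (limma adjusted p = 0.0414 and 0.0492). Those at 0.67 and 0.45 did not. The 6 Nfib probe sets ran from -0.59 to 0.39. None of the 5 nuclear receptor genes was called (0 at an unadjusted p under 0.05), and they ranged from -0.57 for Nr3c1, the glucocorticoid receptor, to 0.28 for Nr2c1, an orphan receptor. Nr3c1 passed with arrays centred on their medians (-0.84, limma adjusted p = 0.0250).

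**Figure D3:**
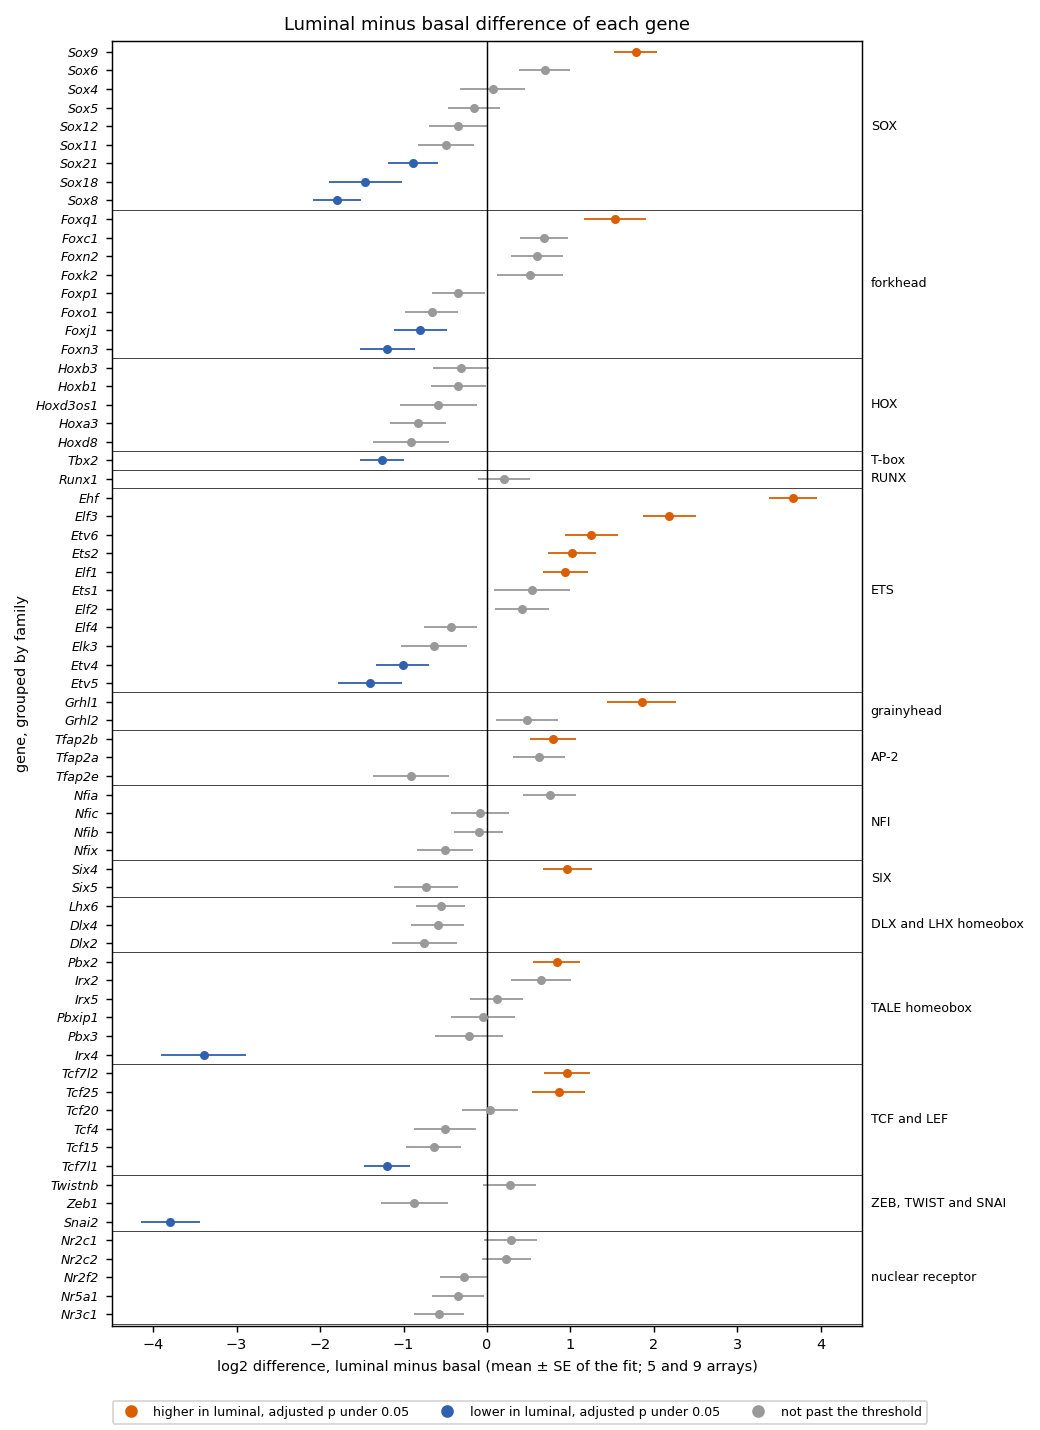
Luminal minus basal log2 difference of each of the 69 genes by family, with bars of 1 SE of the limma fit over 5 luminal and 9 basal arrays, and colours for genes past the adjusted p threshold of 0.05. Snai2 and Irx4 lie farthest to the left at -3.79 and -3.40, Ehf farthest to the right at 3.67, and all HOX genes lie left of 0 without passing.

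15 of the 24 called genes were called in every one of the 14 fits that left out 1 array. They were Ehf, Elf3, Ets2, Etv5, Etv6, Foxn3, Foxq1, Grhl1, Irx4, Snai2, Sox8, Sox9, Tbx2, Tcf7l1 and Tcf7l2. The number called was lowest, 16, without CD24medCD49f-/low replicate 2, where 2124 of 7190 rows (29.5%) were called, and highest, 34, without Thy-1+ replicate 2, where 4270 rows (59.4%) were called. The other 9 genes each lost the call in at least 1 of them. Without CD24medCD49f-/low replicate 2 these were Elf1, Etv4, Foxj1, Pbx2, Six4, Sox21, Tcf25 and Tfap2b, and without CD24medCD49f-/low replicate 1 they were Etv4, Foxj1, Pbx2, Sox18, Sox21, Tcf25 and Tfap2b. Without CD24highCD49fmed replicate 1 Pbx2, Tcf25 and Tfap2b were lost, without replicate 3 Foxj1, Sox21 and Tfap2b, and without CD24medCD49fmed replicate 1 Foxj1, Tcf25 and Tfap2b. The remaining fits lost only Foxj1, Tcf25 or both, or no gene. No called gene changed sign in any of these fits. Without both Thy-1+ arrays of low median, 22 of the 24 calls remained, Foxj1 and Tcf25 being lost, and 9 genes were added, which made 44.9% of the 69 genes, against 49.7% of all rows. Rank products, the test of the study's methods, called 10 genes (14.5%) at p under 0.01 without adjustment, against 17.2% of all rows. They were Ehf, Elf3, Foxq1, Grhl1 and Sox9 as higher and Etv5, Irx4, Snai2, Sox8 and Sox18 as lower in luminal cells.

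Promoters were set beside these results because Snai2 and Zeb1 bind the E-box CACCTG. RefSeq promoter sequences (GRCm38.p6) were found for 48 of the 69 genes, and the 250 bases before each start were searched on both strands for CACCTG, which reads CAGGTG on the other strand. It stood in 10 of these 48 genes, in 14.5% of their promoters, against 17.2% of all promoters. Among genes higher in luminal cells it stood in 4 of 14 promoters, or 28.6% (Elf1, Elf3, Pbx2 and Tcf25), and among genes lower in luminal cells in 0 of 7 promoters. GATAA, the core bound by GATA factors, stood in 14.5% of the promoters of the 69 genes, against 22.6% of all promoters, in 1 of the 14 promoters of genes higher in luminal cells and in 0 of the 7 of genes lower there. With so few promoters these shares are descriptions only. Elf3 (chr1:135258473-135258722, minus strand) and Pbx2 (chr17:34592009-34592258, plus strand) are shown as genes higher in luminal cells with a match, and Tcf7l1 (chr6:72789046-72789295, minus strand) as a gene lower in luminal cells without one. Capitals mark the match, and a match is no evidence of binding.
Elf3: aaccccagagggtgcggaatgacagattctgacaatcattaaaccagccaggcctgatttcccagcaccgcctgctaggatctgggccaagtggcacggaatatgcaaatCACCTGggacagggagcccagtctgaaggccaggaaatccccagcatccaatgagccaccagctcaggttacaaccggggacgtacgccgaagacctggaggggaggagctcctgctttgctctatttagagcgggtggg
Pbx2: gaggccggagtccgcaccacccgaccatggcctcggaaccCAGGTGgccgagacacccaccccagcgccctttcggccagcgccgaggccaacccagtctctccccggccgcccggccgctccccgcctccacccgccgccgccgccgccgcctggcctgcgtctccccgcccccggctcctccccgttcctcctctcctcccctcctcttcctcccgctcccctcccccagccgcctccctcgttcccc
Tcf7l1: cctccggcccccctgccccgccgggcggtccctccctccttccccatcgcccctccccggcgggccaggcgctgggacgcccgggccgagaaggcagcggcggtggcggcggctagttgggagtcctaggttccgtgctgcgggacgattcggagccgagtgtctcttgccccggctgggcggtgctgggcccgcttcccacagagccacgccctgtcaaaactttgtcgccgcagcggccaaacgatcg

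Between the luminal populations 1 of the 69 genes was called, and it was lower in CD24highCD49fmed cells, where 5.59% of all rows were called and 2.57% were lower. Sox6, a SoxD factor that acts with Sox5 in cartilage, was at -0.26, 0.34 and -0.10 in CD24highCD49fmed cells, against 1.03 and 0.90 in CD24medCD49f-/low cells. Its groups did not overlap, and the difference was -0.98 log2 (SE 0.22, limma adjusted p = 0.0423). The call was lost without either CD24medCD49f-/low array and without CD24highCD49fmed replicate 3, and the all-row count without CD24medCD49f-/low replicate 1 was 0. At an unadjusted p under 0.05 there were 15 of 69 genes (21.7%), against 27.0% of all rows. The populations did not overlap for 29 genes (42.0%), against 47.4% of all rows. CD24highCD49fmed arrays lay above for 10 of them and below for 19, against 32.2% and 15.2% of all rows.

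The genes closest to the threshold between the luminal populations lay on both sides. Tfap2b was at 1.11, 0.65 and 0.88 in CD24highCD49fmed cells, against 0.03 and 0.15 in CD24medCD49f-/low cells (difference 0.79, SE 0.20, limma adjusted p = 0.0562). Six4 was at 1.56, 0.82 and 0.79 in CD24highCD49fmed cells, against -0.11 and 0.33 in CD24medCD49f-/low cells (0.95, SE 0.28, limma adjusted p = 0.0789). Elk3 was at -0.05, 0.01 and -0.07 in CD24highCD49fmed cells, against -1.08 and -0.59 in CD24medCD49f-/low cells (0.80, SE 0.20, limma adjusted p = 0.0573). None of these 3 overlapped, and none passed. Tcf7l2, at -0.77 (SE 0.19, limma adjusted p = 0.0542), did not pass but was called with arrays centred on their medians. Sox9 at -0.44 and Ehf at -0.62 did not pass. Other cell states moved along with this comparison. 13 of 14 cell cycle genes were called higher in CD24highCD49fmed cells, and 2 of the 4 measured myeloid markers were called lower. The median over these 4, of 12 listed, lay between -0.72 and -0.28 in CD24highCD49fmed arrays, against 3.19 and 0.74 in the CD24medCD49f-/low arrays. One of the 4, Cd14, was high in both luminal populations, at 1.22 to 2.78. Ptprc, the 1 measured lymphoid marker, was at 0.19 and -0.22 in the CD24medCD49f-/low arrays, against -0.72 to -0.31 in the CD24highCD49fmed arrays. Of 8 luminal progenitor and alveolar genes 5 were called lower in CD24highCD49fmed cells, namely Kit (-1.39), Aldh1a3 (-1.62), Ltf (-1.10), Lalba (-1.30) and Btn1a1 (-1.90), and 5 of 5 hormone-sensing genes were above 0 (median 0.87) without passing, with Esr1 closest (limma adjusted p = 0.0592). The part of these cells in the values above was not tested.

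**Figure D4:**
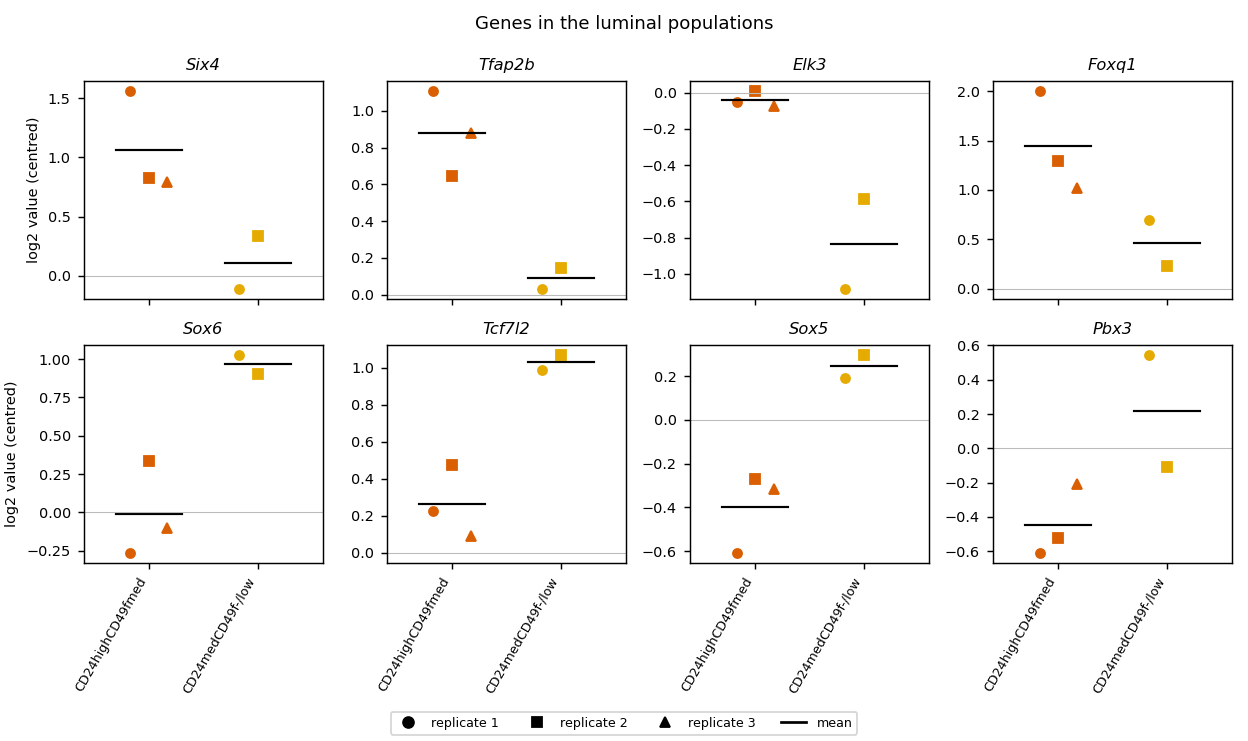
Log2 value (centred) of 8 genes in the CD24highCD49fmed and CD24medCD49f-/low arrays, with symbols by replicate number and bars for population means. The populations do not overlap for any of the 8, and only Sox6, at -0.26 to 0.34 in CD24highCD49fmed cells against 0.90 and 1.03 in CD24medCD49f-/low cells, passed the threshold.

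Among the basal populations limma called 0 of the 69 genes in each of the 3 comparisons. For Thy-1+ against Thy-1- cells limma called 3 of 7190 rows (0.0417%), and 4 of the 69 genes (5.8%) had an unadjusted p under 0.05, against 5.29% of all rows. The populations did not overlap for 4 genes (6.66% of all rows), with Thy-1+ arrays above for Tcf15 (1.86% of all rows) and below for Pbx3, Tfap2b and Foxc1 (4.80% of all rows). Rank products named Sox18 as higher and Pbx3 as lower. Sox18 was at 3.29, -0.17 and 1.33 in Thy-1+ cells, against 0.14, -0.62 and -0.93 in Thy-1- cells (difference 1.95, SE 0.71, limma adjusted p = 0.699). Replicate 1 was the highest of all arrays, and replicate 2 lay within the Thy-1- range. Tfap2e, an AP-2 factor, was at 3.63, -0.56 and 1.05 in Thy-1+ cells, against -0.51, 0.25 and -0.17 in Thy-1- cells (1.51, SE 0.73). Zeb1 was at 2.67, -0.12 and 0.31 in Thy-1+ cells, against -0.00, -0.55 and -0.49 in Thy-1- cells (1.29, SE 0.70). In each of them Thy-1+ replicate 1 was the highest of the 14 arrays. Pbx3, a PBX homeobox factor, was at -2.87, 0.56 and -1.64 in Thy-1+ cells, against 0.77, 1.39 and 0.65 in Thy-1- cells (-2.25, SE 0.71, limma adjusted p = 0.639). Irx2 was at -2.34, 0.36 and -1.96 in Thy-1+ cells, against 0.31, 0.32 and 0.31 in Thy-1- cells (-1.63, SE 0.70), and Irx5 was at -1.55, 0.37 and -1.10, against 0.46, 0.53 and 0.32 (-1.19, SE 0.69). For all 3 genes Thy-1+ replicate 2 resembled the Thy-1- arrays, and replicates 1 and 3 were far below them. The same 2 arrays had the low medians over all probe sets. The median difference over all rows was -0.42 and over the 69 genes -0.19. With arrays centred on their medians it was 0.23 over the 69 genes, so no direction is given for them as a set.

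Schwann cell and fibroblast markers were high in Thy-1+ replicates 1 and 3, and of the Thy-1+ arrays endothelial markers were high only in replicate 1. The median over 6 measured Schwann cell markers was 1.42 and 1.76 in Thy-1+ replicates 1 and 3 and 0.35 in replicate 2, against -0.68 to 0.33 in Thy-1- arrays, and 1 of the 6 was called higher. The median over 10 fibroblast markers was 0.90 and 1.83 in these arrays and -0.15 in replicate 2, against -0.20 to 0.01 in Thy-1- arrays. The median over 16 endothelial markers was 2.70 in replicate 1, 0.05 in replicate 2 and -0.06 in replicate 3, against -0.74 to 0.63 in Thy-1- arrays. All 14 cell cycle genes were below 0 for Thy-1+ against Thy-1- cells (median -0.89, over all rows -0.42). All 14 were above 0 for Thy-1- against CD24medCD49fmed cells (median 0.76, over all rows -0.07), and none was called in either comparison. The part of these cells and of the cell cycle in the values above was not tested. Thy-1+ replicate 1 also held the highest value of all 14 arrays for Hoxd8 (3.29), Hoxd3os1 (2.97), Dlx2 (2.42), Sox11 (2.14), Tcf15 (2.07) and Hoxa3 (2.04), and the lowest for Grhl2 (-2.55) and Foxk2 (-2.50).

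**Figure D5:**
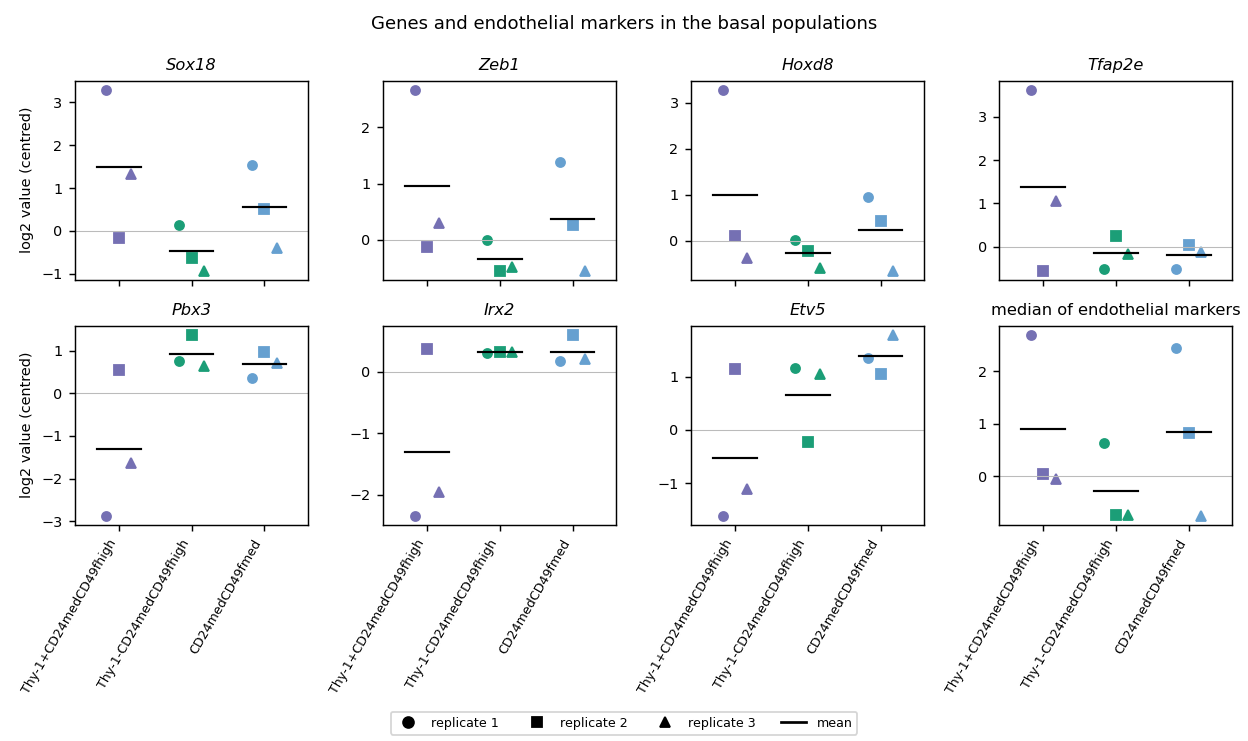
Log2 value (centred) of 7 genes and the median of 16 endothelial markers in the 3 basal populations, with symbols by replicate number and bars for population means. Sox18, Zeb1, Hoxd8 and Tfap2e are highest in Thy-1+CD24medCD49fhigh replicate 1, where the endothelial median is 2.70, and Pbx3, Irx2 and Etv5 are low in Thy-1+CD24medCD49fhigh replicates 1 and 3.

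For Thy-1+ against CD24medCD49fmed cells limma called 0 of 7190 rows (0%), and 7 of the 69 genes (10.1%) had an unadjusted p under 0.05, against 5.33% of all rows. The populations did not overlap for 12 genes (8.86% of all rows), 2 with Thy-1+ arrays above (2.00% of all rows) and 10 below (6.86% of all rows). Etv5 was at -1.61, 1.14 and -1.10 in Thy-1+ cells, against 1.34, 1.04 and 1.79 in CD24medCD49fmed cells (-1.92, SE 0.68, limma adjusted p = 0.548). Foxq1 was at -0.80, -0.87 and 1.38 in Thy-1+ cells, against -1.55, -1.41 and -1.23 in CD24medCD49fmed cells (1.30, SE 0.64), with no overlap. Pbx3 and Pbxip1 were at -2.00 (SE 0.74) and -1.51 (SE 0.57), and Tfap2e and Nr2f2, an orphan nuclear receptor of veins and stroma, at 1.58 (SE 0.83) and 1.01 (SE 0.56). Same-numbered arrays of these populations deviated together in these data, but no shared animal or day is stated. With the number as a block Pbx3 was called lower (-2.00, SE 0.55, limma adjusted p = 0.0361), where 0.765% of all rows were called. Without Thy-1+ replicate 2, 8 of the 69 genes (11.6%) were called, all as lower, namely Etv5, Irx2, Nfix, Pbx3, Pbxip1, Runx1, Six5 and Sox4. Of all 7190 rows 11.9% were called in that fit, 774 as lower and 82 as higher. Rank products named Foxq1 and Tfap2e as higher and Etv5 and Pbx3 as lower. The comparisons that use Thy-1+ arrays share them, so their values are not independent.

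For Thy-1- against CD24medCD49fmed cells limma called 0 of 7190 rows (0%), and 2 of the 69 genes (2.9%) had an unadjusted p under 0.05, against 1.17% of all rows. Foxq1 was at -0.73, 0.62 and -0.65 in Thy-1- cells, against -1.55, -1.41 and -1.23 in CD24medCD49fmed cells, and was the one gene of the 69 with no overlap (1.15, SE 0.40, limma adjusted p = 0.999), where 3.74% of all rows had none (1.81% above). Ets1 was at 0.67, -1.61 and -1.02 in Thy-1- cells, against 1.44, 0.46 and 0.16 in CD24medCD49fmed cells (-1.34, SE 0.58). Rank products named these same 2 genes. Sox18 at -1.02 (SE 0.50), Elk3 at -0.70 (SE 0.36), Foxc1 at 0.52 (SE 0.34) and Foxj1 at 0.54 (SE 0.42) did not pass. Across the 5 populations Foxq1 had its highest mean in CD24highCD49fmed cells, 1.44 ± 0.51 (SD, n = 3), and its lowest in CD24medCD49fmed cells, -1.40 ± 0.16 (SD, n = 3).

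Genes known to be regulated by, or to act beside, these factors were taken from fixed lists. Of all rows, 27.7% were called higher and 17.4% lower in luminal cells. Of 25 measured epithelial junction and EMT genes 14 were called higher and 7 lower in the luminal arrays, and the median difference was 1.08. Cdh1, which encodes E-cadherin, was 1.38 log2 higher (SE 0.28, limma adjusted p = 0.000501), Ocln 2.94 and Cldn7 4.11 higher, while Vim, a filament gene of mesenchymal cells, and Cdh2, which encodes N-cadherin, fell, at -4.62 and -2.99. Most stromal markers moved the same way as Vim and Cdh2: 7 of 10 fibroblast markers were called lower in the luminal arrays, among them Fbln2 (-3.27), Col3a1 (-3.21) and Dcn (-2.45), and 1, Col6a3 (2.27), was called higher (Fn1 stands in both lists). In Thy-1+ replicate 3, 9 of the 10 fibroblast markers were above 0 (median 1.83), and Col3a1 had its highest basal value, 3.76. Fbln2 was the exception, at -1.12, its lowest basal value. Of 7 pericyte markers 5 were called lower, among them Pdgfrb (-2.47) and Rgs5 (-2.12), and 1, Notch3 (2.21), was called higher. Their part in the junction and EMT values was not tested. Of 10 measured nuclear receptor genes with names outside the symbol rule, 4 were called higher and 1 lower in luminal cells. The estrogen receptor gene Esr1 was 2.94 log2 higher (SE 0.32) and the progesterone receptor gene Pgr 2.60 (SE 0.30), whereas the 5 numbered receptors did not pass. Of 19 other transcription factor genes of the mammary gland 5 were called higher and 7 lower. Id4, an inhibitor of helix-loop-helix factors, was -5.46 (SE 0.41) and Trp63, the master gene of basal epithelia, -4.08 (SE 0.37), and Trps1, a GATA-type repressor, was 2.18 higher. Between the luminal populations Myb and Hey1, a Notch target, were called in CD24highCD49fmed cells, Myb as higher (1.28) and Hey1 as lower (-1.15).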

How the data were processed

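Total RNA of sorted mammary cells was labelled in a pair of amplification cycles and read on Affymetrix Mouse Genome arrays. The deposited values are log2 signals: the authors normalized the arrays by RMA in MIDAS, kept probe sets with signal and at least a 4-fold difference between arrays in Cluster, and subtracted each probe set's mean. The submitters' processing notes also name GCRMA. Versions: not given in the sources used here. The filter means that genes with steady levels are not in the table, and shares called among its rows are shares of varying genes.

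Of 9645 probe sets 8499 had 1 gene symbol and were averaged per gene to 6044 genes. 199 probe sets with several symbols and 947 with none stayed on rows of their own, giving 7190 rows. 26 of the 69 genes had several probe sets. Population means were compared with limma 3.58.1 in R 4.3.3, with Benjamini-Hochberg adjustment over all 7190 rows and a threshold of 0.05. Luminal against basal was the mean of the 2 luminal population means minus the mean of the 3 basal ones, over all 14 arrays. Each other comparison used only the arrays compared. The fit was tested on simulated data. The number of arrays limits the precision. Tables were handled in Python 3.11.15 with numpy 2.4.6 and pandas 2.3.3, and plots were drawn with matplotlib 3.10.9.

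The genes and lists were chosen with earlier results of these data known. Genes named are, per family, up to 3 called each way with the largest differences or the one with the smallest p, the called genes or those with the smallest p in each other comparison, and genes with a known mammary or stromal role. Values quoted for Thy-1+ replicate 1 were chosen after seeing them. Alternatives were median centring, quantile normalization, probe sets on their own rows, a block for the replicate number, all arrays in 1 fit, rank products with 100 permutations, a minimum difference of 1 log2 and leaving out each array.

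Same-numbered arrays deviated together between CD24medCD49fmed and Thy-1+ cells (correlations of deviations from the population means 0.39, 0.39 and 0.39) and between CD24medCD49fmed and Thy-1- cells (0.37, 0.33 and 0.56). The pairing thus rests on the labels' numbers and this check in the same data, not on a stated shared animal or day. Between Thy-1+ and Thy-1- cells the correlations were -0.00, -0.16 and 0.25.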

Additional observations from a re-analysis of the deposited data

How the results depend on the processing

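Between luminal and basal cells the direction of every called gene held in every fit run. The called genes numbered 27 with arrays centred on their medians (11 higher, 16 lower, against 41.7% of all rows), 29 after quantile normalization (45.1% of all rows) and 10 by rank products (17.2%). With each probe set on its own row, 26 genes had a called probe set, where 46.4% of all rows were called. Between the luminal populations the 1 call became 2 with median centring (5.59% of all rows), 3 after quantile normalization (5.34%), 3 with each probe set on its own row (6.3%), 0 with all arrays in 1 fit (0.0556%) and 0 with a minimum difference of 1 log2 (4.02%). Leaving out 1 array at a time gave 0 to 2 calls there and 0 to 8 for Thy-1+ against CD24medCD49fmed cells. Rank products called 2 genes for Thy-1+ against Thy-1- cells (2.9%, against 2.27% of all rows), 4 for Thy-1+ against CD24medCD49fmed cells (5.8%, against 2.06%) and 2 for Thy-1- against CD24medCD49fmed cells (2.9%, against 2.25%), where limma called 0.

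With the replicate number as a block, 27 genes were called between luminal and basal cells (47.7% of all rows), adding Hoxa3, Hoxd8 and Zeb1, 6 between the luminal populations (11.5%), adding Elk3, Foxq1, Pbx3, Six4 and Tfap2b, 0 for Thy-1+ against Thy-1- cells (0.0695%), 1 for Thy-1+ against CD24medCD49fmed cells and 0 for Thy-1- against CD24medCD49fmed cells. The numbers did not pair the Thy-1+ with the Thy-1- arrays (correlations -0.00, -0.16 and 0.25), and the luminal populations share only 2 numbers.

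Uncalled luminal against basal differences near 0 changed sign. With median centring, quantile normalization and without both low-median Thy-1+ arrays, Runx1 was at -0.065, -0.11 and -0.13, Sox4 at -0.20, -0.29 and -0.32, and Irx5 at -0.15, -0.18 and -0.26. Irx5 was at -0.10 without both arrays with high endothelial markers. Leaving out 1 array gave -0.15 to 0.27 for Sox4, -0.016 to 0.30 for Irx5 and -0.18 to 0.057 for Nfib. The fits without pairs of arrays were chosen after seeing the data. The causes were not tested, and with 2 or 3 arrays a population small differences cannot be told from the spread.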

Other observations

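Cofactors that act with these factor families were measured for 17 of 32 listed genes. Between luminal and basal cells 2 were called higher and 2 lower, where 27.7% and 17.4% of all rows were called. Their median difference was -0.05. Cited1, a coactivator that binds the estrogen receptor, was 3.35 log2 higher in luminal cells (SE 0.69, limma adjusted p = 0.000563), and Ctnnb1, which encodes the TCF partner beta-catenin, was 0.86 higher (SE 0.34, limma adjusted p = 0.0439). Lmo1, a LIM-only adaptor, fell, with a difference of -3.02 (SE 0.53, limma adjusted p = 0.000121), as did Dach1, a partner of EYA proteins (-1.39, SE 0.34, limma adjusted p = 0.00243). Eya1 and Eya2, the coactivators of sine oculis factors, were at -0.80 and 0.43 and did not pass. Between the luminal populations Lmo4, a LIM-only adaptor of the mammary epithelium, was the 1 cofactor called, at -0.85 (SE 0.19, limma adjusted p = 0.0415) and lower in CD24highCD49fmed cells.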
